A study of Homo sapiens with 12 samples.

Results

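Collagens are the proteins that build the fibrils and sheets of the extracellular matrix, and the RNA of their chain genes was compared here between 4 lines of MIA PaCa-2, a cell line from a human pancreatic carcinoma. The group was chosen by gene symbol alone: every gene named COL, a type number, A and a chain number, which gave 44 of the 63086 genes in the table. The family was taken up because 3 of its members, COL1A2, COL3A1 and COL26A1, had stood out in earlier results of these same libraries, so nothing is read from tests of those 3, and counts over the family are given with and without them. The 4 lines were WT, which was not edited, CRISPR Control, which went through CRISPR-Cas9 editing of TIMP1 and kept only a silent point mutation, and TIMP1 KO 1 and TIMP1 KO 2 (below KO 1 and KO 2), in which exon 4 of TIMP1 was edited. All were grown in the same medium, with no treatment named in the labels, and each was sequenced as 3 libraries, called biological replicates in the labels. Each knockout line was a single clone and CRISPR Control a single line, so an effect of the edit and a difference between clones cannot be told apart from these libraries. Tests measure the spread between libraries of a line, which need not come from separate derivations of that line.

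A collagen molecule is a triple helix wound from chains that are alike or that come from partner genes of the same type. The fibrillar types I, II, III, V and XI form fibrils, type IV forms the network of basement membranes, type VI forms beaded microfilaments next to the cell, and the fibril-associated types attach to the surface of fibrils. Other members span the cell membrane or, like type XVIII, lie in basement membranes and carry sugar chains. A dense collagenous stroma is a mark of pancreatic carcinoma, with fibroblasts as its best known source. TIMP-1, the protein of the edited gene, inhibits matrix metalloproteinases, and several of these enzymes cut collagens.

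Normalised counts, which are reads per gene divided by a size factor for each library, are used throughout. Libraries held 26908701 to 36093563 reads in genes, and a count of 0 leaves room for up to 3 reads, here the floor, which were worth 2.49 to 3.56 normalised counts. Across genes, Pearson's r between replicates of the same line was 0.990 to 0.993 over 12 pairs. TIMP1, the edited gene, held 3837, 3290.2 and 3532 (WT), 2285, 2826 and 2959 (CRISPR Control), 1562, 1624 and 1613 (KO 1) and 1136, 1192 and 1155 (KO 2). Its RNA was lower in all 6 KO libraries than in the other 6 and not absent, and reads outside the edited exon do not check the edit. TIMP1 also passed the test as lower than WT in CRISPR Control (log2 fold change -0.41), beside -1.15 in KO 1 and -1.61 in KO 2. As markers of the labelled cell type, 6 epithelial genes (KRT8, KRT18, KRT19, KRT7, EPCAM and CDH1) summed to 193239 to 216548 in WT, 215680 to 223516 in KO 1 and 174305 to 198262 in KO 2, and to 56587 to 72786 in CRISPR Control. All 6 had a line mean of at least 10 in every line. KRT8, KRT18 and KRT19 make up most of that sum and were lower than WT in CRISPR Control, where EPCAM, CDH1 and KRT7 did not pass the test. CDH1, which encodes E-cadherin, went another way than the sum, with averages of 1189 (WT), 1424 (CRISPR Control), 128 (KO 1) and 84.9 (KO 2), and KRT19 was highest in KO 2, at 52497 against 15707 in WT. Of 10 fibroblast markers, 5 or 6 had a mean under 10 in each line, PDPN was at 0 in all libraries, and the sum was 1086 to 1181 (WT), 1968 to 2333 (CRISPR Control), 1094 to 1203 (KO 1) and 2055 to 2170 (KO 2), most of it THY1. PDGFRA went another way than the sum in CRISPR Control, with averages of 23.6 (WT), 2.95 (CRISPR Control), 8.41 (KO 1) and 283 (KO 2). Of the 5 fibroblast markers tested, 3 were higher and 1 lower than WT in CRISPR Control, 1 and 2 in KO 1, and 3 and 0 in KO 2. Of all genes tested, 27.2% and 26.3%, 18.0% and 17.5%, and 27.1% and 27.9% were higher and lower in the same order. The part of these marker shifts in the collagen differences was not tested.

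The whole family took a similar share of reads in most lines but was built from different genes. Summed over the 44 genes, collagen chains held 0.318% ± 0.008 (SD, n = 3) of all normalised counts of the WT libraries. Their share was 0.330% ± 0.023 (CRISPR Control), 0.485% ± 0.051 (KO 1) and 0.348% ± 0.045 (KO 2). COL18A1 was the largest member in both KO lines and in WT, and made up 60.8% of the family's counts there, 32.4% of them in CRISPR Control, and 51.7% and 53.4% in the knockout lines. COL1A1 made up 11.5% (WT), 8.41% (CRISPR Control), 36.8% (KO 1) and 33.0% (KO 2). In CRISPR Control COL5A2 was slightly above COL18A1, with a mean of 34687 against 34143. In bulk RNA, more cells of a kind and more RNA per cell cannot be told apart. These sums weigh long transcripts more than short ones, because they are not divided by length.

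**Figure D1:**
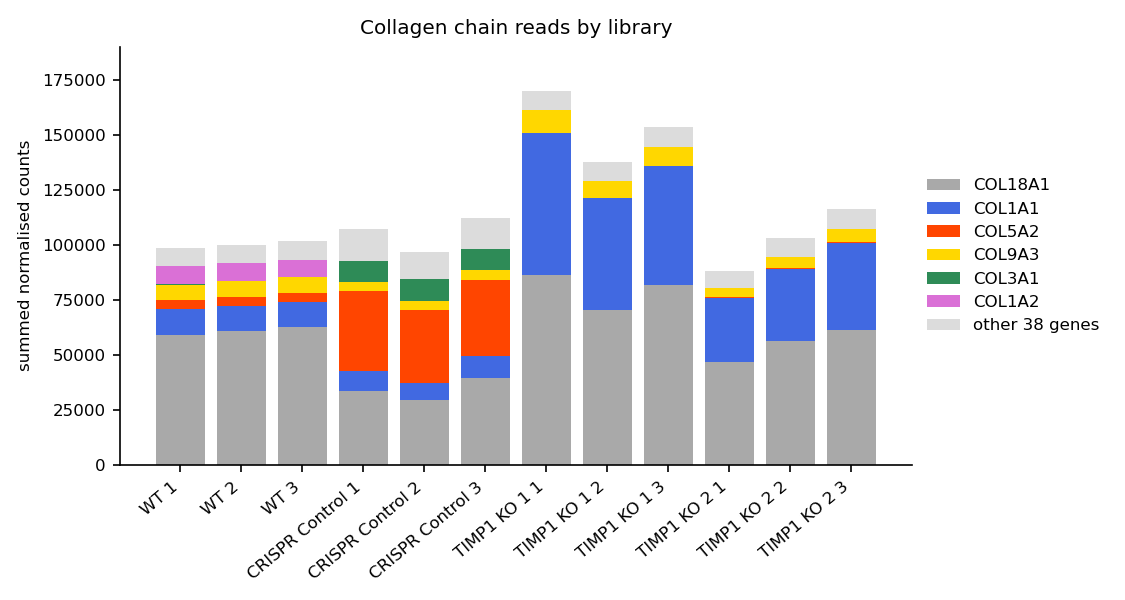
Summed normalised counts (y axis) of the 44 collagen chain genes in each of the 12 libraries (x axis), split into the 6 members with most counts and the other 38. COL1A2 is visible only in WT, thick COL3A1 and COL5A2 layers only in CRISPR Control, and the COL1A1 layer is widest in KO 1 and KO 2.

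Of the 44 genes, 32 had a mean of at least 10 over the 12 libraries and were tested in a limma fit over 15987 genes. A gene can pass this minimum through 1 high line, in which case it had to differ, so the counts below describe those that passed and not the family. Among the 4 lines, 30 of the 32 differed (limma F test, adjusted p under 0.05), where 80.4% of all genes tested did, and 27 of 29 did without the 3 that prompted the choice. COL11A2 and COL27A1 were the exceptions. In CRISPR Control against WT 18 of the 32 were higher and 9 lower, where 27.2% and 26.3% of all genes were. In KO 1 against WT 8 were higher and 17 lower, against 18.0% and 17.5% of all genes. In KO 2 against WT 10 were higher and 13 lower, against 27.1% and 27.9%. Without the 3 prompting genes, 17 were higher and 8 lower of 29 in CRISPR Control, 8 and 14 in KO 1, and 10 and 10 in KO 2. These 3 comparisons share the WT libraries, so a high or low WT value enters all of them.

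Sizes of change are given for the 29 tested genes other than the 3 that prompted the choice, and as a description, since genes that passed the minimum through 1 high line are among them. Their median absolute log2 fold change was 1.11 in CRISPR Control against WT, where that of all genes tested was 0.35. It was 1.10 against 0.24 in KO 1 and 0.90 against 0.37 in KO 2. With the 3 genes included it was 1.12, 1.44 and 0.99. Changes of at least 1 on the log2 scale were seen in 17 of the 29 (58.6%) for CRISPR Control, where 15.1% of all genes reached that size, in 15 (51.7%, against 8.69%) for KO 1 and in 13 (44.8%, against 15.1%) for KO 2. The signed medians of the 29 were 0.84, -0.50 and 0.11. With the 3 genes included they were 0.84, -0.69 and -0.058, so in KO 2 the sign of the median turned with those genes.

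**Figure D2:**
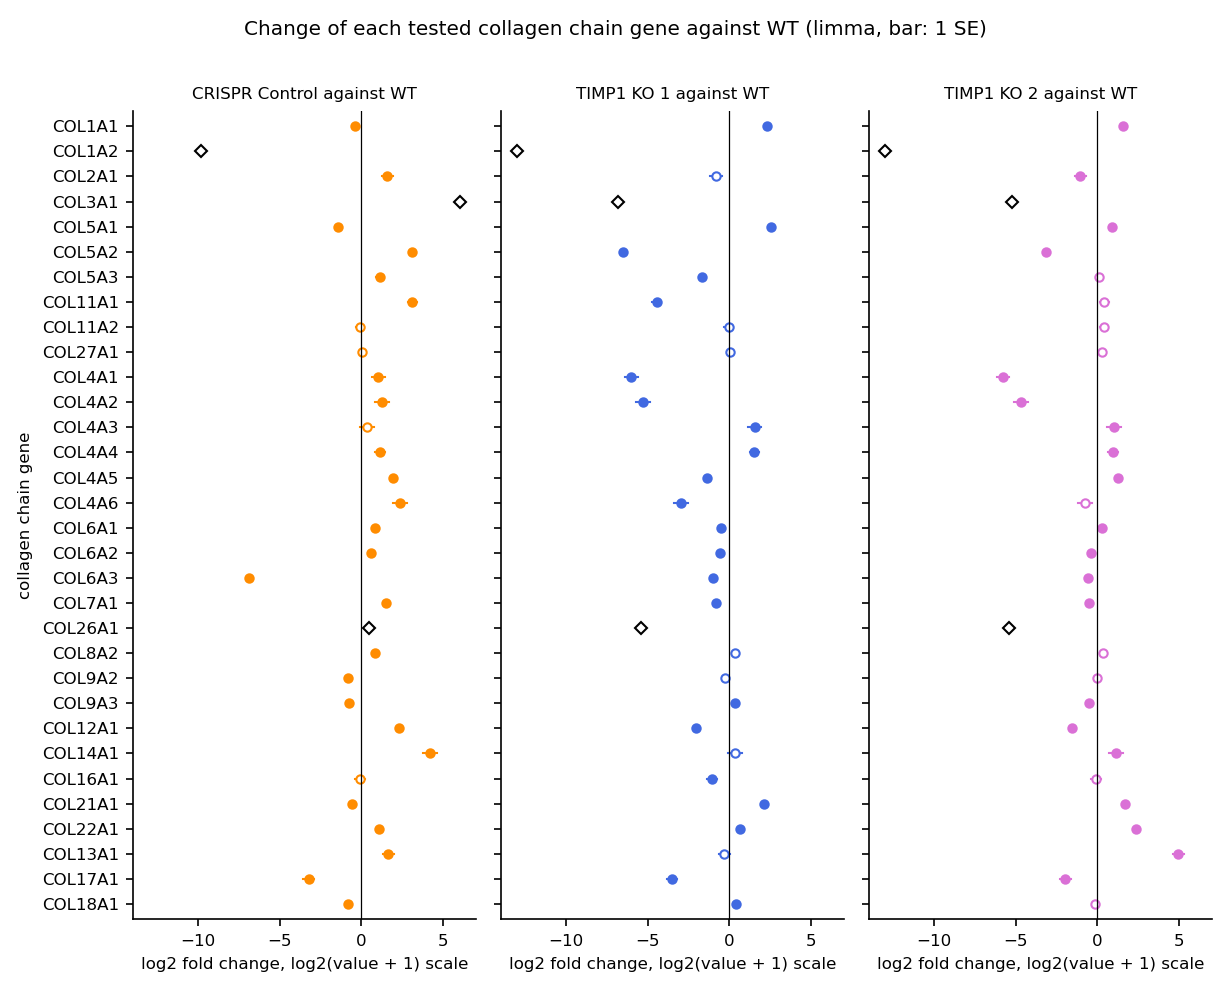
Log2 fold change against WT (x axis, on the log2(normalised count + 1) scale) of the 32 tested genes (y axis) in CRISPR Control, KO 1 and KO 2. Filled circles passed the limma test, open circles did not, bars are 1 SE, and diamonds are the 3 genes shown as values only. Values of genes near 0 reads in a line, such as COL1A2, COL3A1 and COL4A1, depend on the added 1. COL1A1, COL5A1 and COL21A1 lie left of 0 in CRISPR Control and right of 0 in both KO lines, and COL5A2, COL4A1, COL4A2, COL12A1, COL7A1 and COL6A2 are among those that lie the other way.

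Among the fibrillar genes, the chains of type I parted from each other. COL1A1 (chr17:50184101-50201632, minus strand) encodes the alpha 1 chain, which forms most of a type I molecule, and held 11882, 11389.7 and 11199 (WT), 8906, 7654 and 10044 (CRISPR Control), 64798, 50821 and 54216 (KO 1) and 28872, 32819 and 39818 (KO 2). All KO libraries lay above all WT and CRISPR Control libraries, and those of KO 1 lay above those of KO 2. COL1A1 differed from WT on the log2 scale by 2.29 (SE 0.11, limma adjusted p = 1.22e-11) in KO 1 and 1.55 (SE 0.11, limma adjusted p = 1.52e-09) in KO 2, and by -0.38 (SE 0.11, limma adjusted p = 0.00832) in CRISPR Control. The CRISPR Control difference was -0.28 with a limma adjusted p of 0.0516 when CRISPR Control replicate 2 was left out.

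COL1A2 (chr7:94394895-94431227, plus strand), its partner, encodes the alpha 2 chain. COL1A2 held 8506, 8301 and 7845 in WT, 9.50, 10.7 and 5.49 in CRISPR Control and 0 in all 6 KO libraries. WT stood apart from the other 9 libraries. Set against the floor of 3 reads in each library, the drop from WT was at least 2660.3-fold for KO 1 and no less than 3028-fold for KO 2. Per kilobase of transcript, a scale on which levels of different genes can be set side by side, COL1A1 and COL1A2 stood at 1943 and 1620.1 normalised counts in WT, close to each other. On that scale CRISPR Control had 1499 of COL1A1 and 1.69 of COL1A2, while KO 1 and KO 2 had 9572 and 5721 of COL1A1 with COL1A2 at 0. The type I chains stood at like levels in WT alone.

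Type III collagen, a partner of type I in many fibrils, is built from the single chain of COL3A1 (chr2:188974373-189012746, plus strand). COL3A1 held 155, 147 and 136 (WT), 9816, 9670.1 and 9873 (CRISPR Control), 0, 1.13 and 0 (KO 1) and 3.31, 1.75 and 4.04 (KO 2). CRISPR Control was highest, WT lay far below it, and both KO lines were at or near the floor. The WT mean was 389.8-fold that of KO 1, which rests on 1 read in KO 1 (95% counting interval 76.7 to 16996). COL5A2 is the next collagen gene along the same chromosome, on the opposite strand.

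Type V collagen lies inside type I fibrils and sets where they begin and how wide they grow. COL5A2 (chr2:189031898-189225312, minus strand) encodes its alpha 2 chain and had the widest range of line means of the genes named here by rule. COL5A2 held 3869.8, 4165 and 4108 (WT), 36464, 33247 and 34351 (CRISPR Control), 46.5, 39.4 and 46.8 (KO 1) and 427, 443 and 501 (KO 2). The 4 lines did not overlap and ran from CRISPR Control through WT and KO 2 to KO 1. COL5A2 differed from WT on the log2 scale by 3.10 (SE 0.09, limma adjusted p = 8.92e-16) in CRISPR Control, -6.49 (SE 0.09, limma adjusted p = 4.61e-20) in KO 1 and -3.15 (SE 0.09, limma adjusted p = 1.57e-15) in KO 2.

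COL5A1 (chr9:134641803-134844843, plus strand), the alpha 1 chain of the same type, ran in the opposite order. Its libraries held 753, 647 and 697 (WT), 293, 218 and 266 (CRISPR Control), 4225, 3809 and 4151 (KO 1) and 1201, 1302 and 1409 (KO 2), so that KO 1 was highest, then KO 2, WT and CRISPR Control, with no overlap. COL5A1 differed from WT on the log2 scale by 2.54 (SE 0.10, limma adjusted p = 6.36e-13) in KO 1, 0.90 (SE 0.10, limma adjusted p = 5.93e-07) in KO 2 and -1.44 (SE 0.10, limma adjusted p = 1.06e-09) in CRISPR Control. Per kilobase, COL5A2 stood at 593 in WT and 5079 in CRISPR Control against 82.8 and 30.7 for COL5A1. KO 1 had 6.48 for COL5A2 and 481 for COL5A1, and KO 2 had 66.9 and 154. The more abundant of these partner chains was therefore COL5A2 in WT and CRISPR Control, and COL5A1 in both KO lines.

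COL5A3 (chr19:9959561-10010504, minus strand), the alpha 3 chain found in some type V molecules, held 44.1, 56.4 and 54.3 (WT), 117, 110.3 and 108 (CRISPR Control), 14.0, 18.0 and 14.1 (KO 1) and 49.7, 51.7 and 66.6 (KO 2). CRISPR Control was above the other lines and KO 1 below them, while WT and KO 2 overlapped. COL5A3 differed from WT on the log2 scale by 1.11 (SE 0.20, limma adjusted p = 1.74e-04) in CRISPR Control and -1.68 (SE 0.20, limma adjusted p = 3.14e-06) in KO 1, and by 0.11 (SE 0.20, limma adjusted p = 0.665) in KO 2, which did not pass.

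COL11A1 (chr1:102876467-103108872, minus strand) encodes the alpha 1 chain of type XI, a minor fibrillar collagen of cartilage that is also known from tumour stroma. COL11A1 held 159.6, 171 and 172 (WT), 1570.3, 1360.4 and 1400.0 (CRISPR Control), 14.0, 3.38 and 6.18 (KO 1) and 200.5, 234 and 242 (KO 2). CRISPR Control was highest and KO 1 lowest, with KO 2 somewhat above WT. COL11A1 differed from WT on the log2 scale by 3.10 (SE 0.28, limma adjusted p = 2.36e-08) in CRISPR Control, -4.44 (SE 0.28, limma adjusted p = 3.50e-10) in KO 1 and 0.42 (SE 0.28, limma adjusted p = 0.204) in KO 2. The KO 2 difference did not pass here but did in edgeR on the recovered reads (0.38, adjusted p = 0.0353) and at a pseudocount of 10 (0.40, limma adjusted p = 0.0429), and with KO 1 replicate 1 left out of the shared fit (limma adjusted p = 0.0358). Its partner COL11A2 averaged 51.8 ± 4.99 (WT), 52.7 ± 27.0 (CRISPR Control), 49.8 ± 2.92 (KO 1) and 69.5 ± 11.2 (KO 2) and did not pass the test among lines. COL2A1, the type II chain that also serves as the third chain of type XI, averaged 19.3 ± 8.15 (WT), 57.0 ± 5.99 (CRISPR Control), 10.1 ± 2.73 (KO 1) and 8.41 ± 1.97 (KO 2); it was higher in CRISPR Control (1.59, SE 0.35, limma adjusted p = 8.01e-04) and lower in KO 2 (-1.05, SE 0.35, limma adjusted p = 0.0154), and in KO 1 its log2 change of -0.83 (SE 0.35, limma adjusted p = 0.0714) did not pass.

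**Figure D3:**
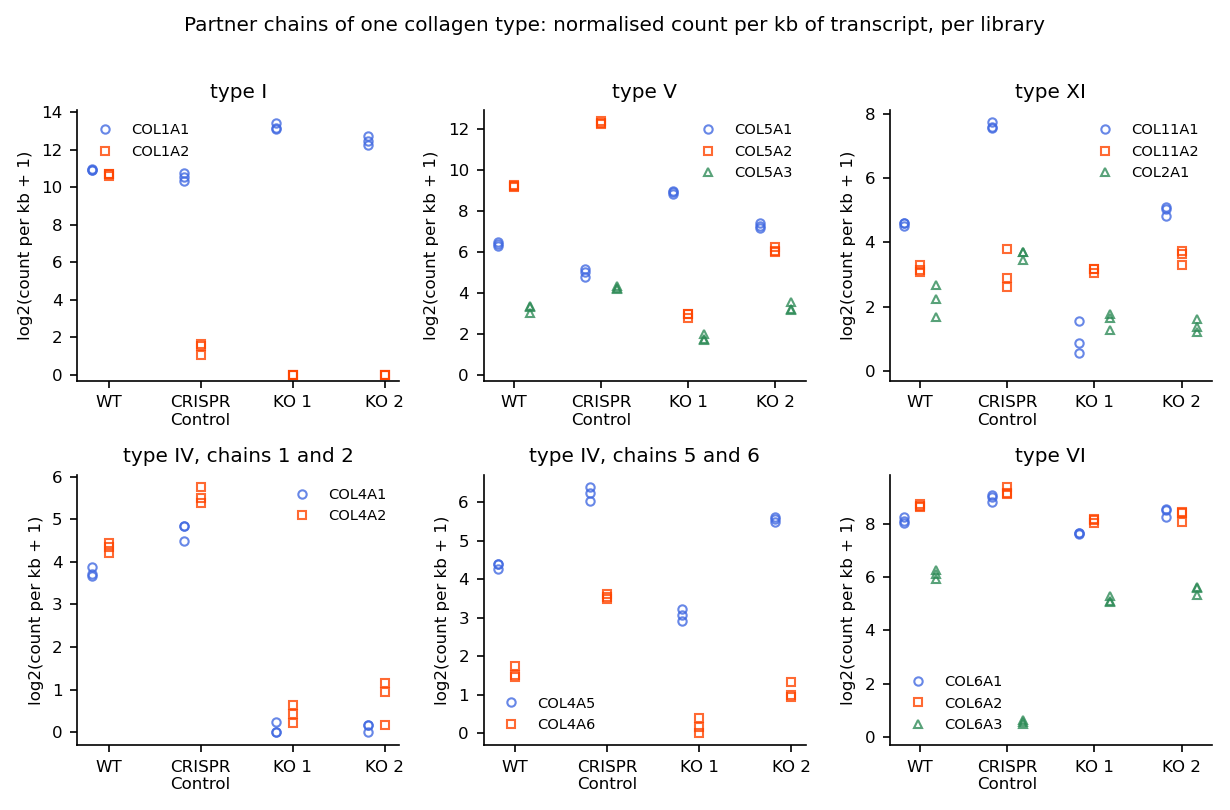
Levels of partner chains as log2(normalised count per kilobase of transcript + 1) (y axis) in each library of the 4 lines (x axis), 1 panel for each set of partners. COL1A1 and COL1A2 lie close together in WT alone, COL5A1 and COL5A2 change order between WT and the KO lines, and COL6A3 is apart from COL6A1 and COL6A2 most of all in CRISPR Control.

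The basement membrane genes of type IV lie as 3 head-to-head pairs, each sharing a stretch of DNA from which the partners are transcribed in opposite directions. That stretch is shown for each pair, read 5′ to 3′ along the plus strand of GRCh38.p14 from RefSeq promoter windows, because the partners are compared below. Capitals mark 2 promoter motifs found on either strand, CCAAT as well as GGGCGG, so that a match on the minus strand shows as its reverse complement. The COL4A1/COL4A2 stretch covers all 126 bases between the RefSeq starts (chr13:110307158-110307283), and the others the 250 bases before the start of the plus-strand gene (chr2:227164374-227164623 for COL4A3, chrX:108439588-108439837 for COL4A5).
COL4A1/COL4A2: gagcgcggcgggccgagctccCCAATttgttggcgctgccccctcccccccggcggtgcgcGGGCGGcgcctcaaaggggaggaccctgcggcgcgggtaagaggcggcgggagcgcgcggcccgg
COL4A4/COL4A3: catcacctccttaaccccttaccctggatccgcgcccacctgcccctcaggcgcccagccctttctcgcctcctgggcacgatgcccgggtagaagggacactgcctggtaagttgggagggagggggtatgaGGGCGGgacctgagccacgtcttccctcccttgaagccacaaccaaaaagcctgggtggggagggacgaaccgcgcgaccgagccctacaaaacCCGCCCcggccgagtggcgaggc
COL4A6/COL4A5: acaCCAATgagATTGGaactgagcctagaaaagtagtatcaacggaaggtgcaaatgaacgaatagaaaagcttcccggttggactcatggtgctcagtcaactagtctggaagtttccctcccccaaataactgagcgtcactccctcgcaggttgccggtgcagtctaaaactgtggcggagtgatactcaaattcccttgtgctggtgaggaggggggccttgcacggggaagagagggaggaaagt
The COL4A1/COL4A2 stretch is 80.2% G and C with 20 CpG sites, 1 CCAAT and 1 GGGCGG. COL4A4/COL4A3 has 66.4% G and C, 17 CpG sites and 2 GGGCGG, and COL4A6/COL4A5 has 51.2% G and C, 8 CpG sites and 2 CCAAT. None of the 3 holds TATAAA. Of all 35116 RefSeq promoter windows of 300 bases, 34.6% hold CCAAT, 45.0% GGGCGG and 11.5% TATAAA on either strand, and a match here describes the letters only, not a site in use. Windows were found for 32 of the 44 collagen genes.

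COL4A1 (chr13:110148963-110307157, minus strand) and COL4A2 (chr13:110305812-110513209, plus strand) encode the chains of the most widespread basement membrane network. COL4A1 held 77.0, 89.1 and 79.1 (WT), 181, 141 and 182 (CRISPR Control), 0, 1.13 and 0 (KO 1) and 0.828, 0.877 and 0 (KO 2). COL4A2 held 112, 125 and 133 (WT), 287, 261 and 343 (CRISPR Control), 1.08, 2.25 and 3.53 (KO 1) and 0.828, 7.89 and 6.05 (KO 2). In both genes CRISPR Control was above WT in every library, and all 6 KO libraries were under 10, below every WT library. The fall of COL4A1 in the KO lines rests on 1 read in KO 1 and 2 reads in KO 2: the WT mean was 218-fold that of KO 1 (95% counting interval 43.0 to 9591, limma adjusted p = 7.22e-10) and 144-fold that of KO 2 (37.5 to 1138, adjusted p = 5.02e-10). COL4A2 differed from WT on the log2 scale by -5.31 (SE 0.44, limma adjusted p = 1.80e-08) in KO 1 and -4.67 (SE 0.44, limma adjusted p = 4.12e-08) in KO 2. In CRISPR Control the log2 fold changes were 1.02 (SE 0.39, limma adjusted p = 0.0343) for COL4A1 and 1.25 (SE 0.44, limma adjusted p = 0.0214) for COL4A2. The CRISPR Control call of COL4A1 was lost when any single WT or CRISPR Control library was left out (limma adjusted p from 0.0534 to 0.106) and at a pseudocount of 0.5 (0.102), and with no minimum mean both genes missed the threshold (0.117 and 0.0503). The call of COL4A2 was also lost without WT replicate 1 (0.0644) or CRISPR Control replicate 3 (0.0689). GENCODE, unlike the RefSeq starts shown above, annotates COL4A1 and COL4A2 with overlapping ends on opposite strands, and the strand setting of the counting is not given in the sources used here, so some reads could be of either gene.

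COL4A5 (chrX:108439838-108697545, plus strand), a chain of the networks of kidney, skin and smooth muscle, went opposite ways in the knockout clones. COL4A5 held 118, 130.0 and 130.5 (WT), 541, 480.4 and 419.8 (CRISPR Control), 55.1, 42.8 and 48.6 (KO 1) and 313, 286 and 303 (KO 2). No lines overlapped, with WT between KO 1 below and KO 2 above. COL4A5 differed from WT on the log2 scale by -1.36 (SE 0.14, limma adjusted p = 2.40e-07) in KO 1, 1.25 (SE 0.14, limma adjusted p = 3.04e-07) in KO 2 and 1.92 (SE 0.14, limma adjusted p = 8.88e-10) in CRISPR Control. Its head-to-head partner COL4A6 averaged 13.3 ± 2.18 (WT), 71.1 ± 3.56 (CRISPR Control), 1.01 ± 1.09 (KO 1) and 7.62 ± 2.15 (KO 2). COL4A6 was higher than WT in CRISPR Control (log2 fold change 2.34, SE 0.42). It reached the minimum mean of 10 only through CRISPR Control, so no p is given there. In KO 1 COL4A6 was lower than WT and rests on 3 reads (WT mean 13.2-fold that of KO 1, 95% counting interval 4.12 to 65.4, limma adjusted p = 1.84e-05). In KO 2 its log2 change of -0.75 (SE 0.42, limma adjusted p = 0.137) did not pass, where that of COL4A5 was positive.

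COL4A3 and COL4A4, which join COL4A5 in the network of the kidney glomerulus, were low everywhere. COL4A3 averaged 8.05 ± 3.45 (WT), 10.95 ± 6.38 (CRISPR Control), 24.7 ± 7.77 (KO 1) and 16.5 ± 1.63 (KO 2). COL4A4 averaged 25.1 ± 9.50 (WT), 54.6 ± 15.7 (CRISPR Control), 71.4 ± 18.2 (KO 1) and 47.1 ± 7.51 (KO 2). Against WT the log2 fold changes of COL4A3 were 1.54 (SE 0.42, limma adjusted p = 0.00747) in KO 1, 1.03 (SE 0.42, limma adjusted p = 0.0443) in KO 2 and 0.35 (SE 0.42, limma adjusted p = 0.507) in CRISPR Control, the last of which did not pass. COL4A4 was higher than WT in all 3 lines, by 1.52 (SE 0.29, limma adjusted p = 4.05e-04) in KO 1, 0.94 (SE 0.29, limma adjusted p = 0.00955) in KO 2 and 1.13 (SE 0.29, limma adjusted p = 0.00284) in CRISPR Control. In edgeR on the recovered reads neither gene passed in KO 2. The pair COL4A3 and COL4A4 thus moved up in KO 1, where COL4A1, COL4A2, COL4A5 and COL4A6 were lower than WT.

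Type VI collagen needs its alpha 3 chain to join alpha 1 and alpha 2 before it is secreted. COL6A3 (chr2:237324003-237414328, minus strand), the alpha 3 gene, held 802, 637 and 731 (WT), 5.18, 5.93 and 4.40 (CRISPR Control), 399.7, 339 and 352 (KO 1) and 417, 506 and 503 (KO 2). CRISPR Control was near the floor while every other library held 339 or more, and KO 1 and KO 2 lay below WT. COL6A3 differed from WT on the log2 scale by -6.88 (SE 0.14, limma adjusted p = 1.06e-17) in CRISPR Control, -0.99 (SE 0.14, limma adjusted p = 2.44e-05) in KO 1 and -0.60 (SE 0.14, limma adjusted p = 0.00151) in KO 2. Its partners did not follow it in CRISPR Control. COL6A1 averaged 1180.1 ± 82.5 (WT), 2108 ± 192 (CRISPR Control), 831 ± 13.5 (KO 1) and 1463 ± 154 (KO 2) and was higher than WT in CRISPR Control by 0.83 (SE 0.09, limma adjusted p = 3.41e-07). COL6A2 averaged 1409 ± 56.9 (WT), 2084 ± 215 (CRISPR Control), 959 ± 43.7 (KO 1) and 1097 ± 148 (KO 2) and was higher there by 0.56 (SE 0.10, limma adjusted p = 9.19e-05). Per kilobase, COL6A1, COL6A2 and COL6A3 stood at 281, 409 and 68.7 normalised counts in WT and at 502, 605 and 0.491 in CRISPR Control. In KO 1 both partners were lower than WT, COL6A1 at -0.50 (SE 0.09, limma adjusted p = 2.50e-04) and COL6A2 at -0.56 (SE 0.10, limma adjusted p = 1.91e-04), and in KO 2 COL6A1 was higher (0.31, SE 0.09, limma adjusted p = 0.00778) and COL6A2 lower (-0.37, SE 0.10, limma adjusted p = 0.0035). COL6A5 and COL6A6, which encode chains related to alpha 3, had at most 2 reads in any line, so no level could be read at this depth.

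The fibril-associated genes encode collagens that sit on fibrils without forming them. COL12A1 (chr6:75084326-75206267, minus strand), the type XII chain, held 188, 176 and 209 (WT), 1201, 782 and 892 (CRISPR Control), 57.3, 45.0 and 37.1 (KO 1) and 65.4, 67.5 and 63.6 (KO 2). CRISPR Control lay above WT and both KO lines below it, with no overlap. COL12A1 differed from WT on the log2 scale by 2.30 (SE 0.17, limma adjusted p = 1.87e-09) in CRISPR Control, -2.03 (SE 0.17, limma adjusted p = 2.36e-08) in KO 1 and -1.53 (SE 0.17, limma adjusted p = 4.54e-07) in KO 2.

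COL14A1 (chr8:120059780-120373573, plus strand), the type XIV chain and a close relative of type XII, held 15.8, 15.5 and 4.76 (WT), 229.8, 183 and 231 (CRISPR Control), 6.48, 30.4 and 12.4 (KO 1) and 26.5, 27.2 and 21.2 (KO 2). The CRISPR Control libraries were all at 183 or more, and the other 9 were at 30.4 or less. COL14A1 differed from WT on the log2 scale by 4.20 (SE 0.43, limma adjusted p = 1.80e-07) in CRISPR Control, 1.14 (SE 0.43, limma adjusted p = 0.0326) in KO 2 and 0.32 (SE 0.43, limma adjusted p = 0.601) in KO 1, the last of which did not pass. The KO 2 difference was 0.63 without WT replicate 3 (limma adjusted p = 0.213), the lowest WT library, and it was also lost without KO 2 replicate 1 (0.0770) or 2 (0.0857) and with no minimum mean (0.0692).

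COL21A1 (chr6:56056590-56394094, minus strand), the type XXI chain, went the other way and held 151, 145 and 167 (WT), 102, 108 and 101 (CRISPR Control), 662, 644 and 726 (KO 1) and 509, 499 and 509.5 (KO 2). Both KO lines were above WT, and CRISPR Control was below it. COL21A1 differed from WT on the log2 scale by 2.13 (SE 0.11, limma adjusted p = 1.21e-11) in KO 1, 1.71 (SE 0.11, limma adjusted p = 1.31e-10) in KO 2 and -0.56 (SE 0.11, limma adjusted p = 1.88e-04) in CRISPR Control. COL22A1 (chr8:138588235-138914041, minus strand), the type XXII chain of tissue junctions such as that of muscle and tendon, held 69.0, 70.0 and 67.6 (WT), 120.1, 153 and 167 (CRISPR Control), 92.9, 108 and 131 (KO 1) and 349, 322 and 396 (KO 2). KO 2 stood above every other library and WT below every other. COL22A1 differed from WT on the log2 scale by 2.35 (SE 0.16, limma adjusted p = 4.71e-10) in KO 2, 1.07 (SE 0.16, limma adjusted p = 1.63e-05) in CRISPR Control and 0.66 (SE 0.16, limma adjusted p = 0.00299) in KO 1.

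Type IX and XVI genes moved less. COL9A3, a type IX chain and one of the most abundant members, averaged 7107 ± 86.6 (WT), 4216 ± 271 (CRISPR Control), 8922 ± 1287 (KO 1) and 4953 ± 856 (KO 2). It was lower than WT in CRISPR Control (-0.76, SE 0.11, limma adjusted p = 9.55e-06) and KO 2 (-0.53, SE 0.11, limma adjusted p = 3.36e-04) and higher in KO 1 (0.32, SE 0.11, limma adjusted p = 0.0262). COL9A2 averaged 469 ± 21.6 (WT), 263 ± 46.5 (CRISPR Control), 387 ± 32.9 (KO 1) and 474 ± 89.8 (KO 2) and was lower in CRISPR Control (-0.84, SE 0.14, limma adjusted p = 5.62e-05). COL9A1, whose chain completes type IX, had at most 2 reads in any line. COL16A1 averaged 30.0 ± 5.49 (WT), 28.9 ± 8.71 (CRISPR Control), 13.8 ± 4.62 (KO 1) and 27.7 ± 5.06 (KO 2) and was lower in KO 1 (-1.10, SE 0.31, limma adjusted p = 0.00903). Per kilobase, COL9A3 stood at 2846, 1688, 3573 and 1984 normalised counts in the order WT, CRISPR Control, KO 1 and KO 2, above COL1A1 in WT and CRISPR Control and below it in both KO lines.

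Among the transmembrane collagens, COL13A1 (chr10:69801880-69964275, plus strand), found at cell contacts and at the junction of nerve and muscle, was high in KO 2. COL13A1 held 31.7, 19.1 and 44.8 (WT), 69.1, 122 and 105 (CRISPR Control), 35.7, 31.5 and 12.4 (KO 1) and 945, 964 and 965 (KO 2). The KO 2 libraries were above all others and close to each other, and WT and KO 1 overlapped. COL13A1 differed from WT on the log2 scale by 4.95 (SE 0.32, limma adjusted p = 3.06e-10) in KO 2 and 1.64 (SE 0.32, limma adjusted p = 3.18e-04) in CRISPR Control, and by -0.31 (SE 0.32, limma adjusted p = 0.501) in KO 1, which did not pass. COL17A1 (chr10:104031286-104085880, minus strand), the hemidesmosome collagen that anchors epithelial cells to the basement membrane, held 204, 160.0 and 171 (WT), 28.5, 8.30 and 24.2 (CRISPR Control), 18.4, 14.6 and 11.5 (KO 1) and 38.9, 48.2 and 47.4 (KO 2). WT was above every library of the other 3 lines. Of the epithelial markers, KRT8, KRT18 and KRT19 were also lower than WT in CRISPR Control, where the rest did not pass the test. Both knockout lines were mixed, with CDH1 lower than WT but KRT19 higher. KRT8, KRT18 and EPCAM were lower as well in KO 2, whereas KRT7 was higher there. What part these markers have in the COL17A1 differences was not tested. COL17A1 differed from WT on the log2 scale by -3.23 (SE 0.33, limma adjusted p = 1.64e-07) in CRISPR Control, -3.52 (SE 0.33, limma adjusted p = 1.15e-07) in KO 1 and -1.97 (SE 0.33, limma adjusted p = 5.92e-05) in KO 2.

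COL18A1, whose product releases endostatin, averaged 60841 ± 1913 (WT), 34143 ± 5028 (CRISPR Control), 79449.7 ± 8055 (KO 1) and 54777 ± 7254 (KO 2). It was lower than WT in CRISPR Control (-0.84, SE 0.11, limma adjusted p = 3.40e-06), higher in KO 1 (0.38, SE 0.11, limma adjusted p = 0.0108) and not past the threshold in KO 2 (-0.16, SE 0.11, limma adjusted p = 0.228). COL7A1, the chain of the anchoring fibrils of skin, averaged 921 ± 39.6 (WT), 2679 ± 433 (CRISPR Control), 523 ± 36.8 (KO 1) and 636 ± 81.9 (KO 2) and was higher in CRISPR Control (1.53, SE 0.11, limma adjusted p = 1.42e-09) and lower in KO 1 (-0.82, SE 0.11, limma adjusted p = 1.24e-05) and KO 2 (-0.54, SE 0.11, limma adjusted p = 4.30e-04). COL7A1 lay just outside the rule for genes shown library by library, with a range of line means of 2.34 on the log2 scale against 2.35 for COL22A1, the last inside. COL8A2, a chain of the membrane under the corneal endothelium, averaged 85.7 ± 13.9 (WT), 153 ± 12.7 (CRISPR Control), 106 ± 11.6 (KO 1) and 110.1 ± 7.26 (KO 2) and was higher in CRISPR Control (0.84, SE 0.16, limma adjusted p = 2.06e-04). COL27A1 averaged 222 ± 41.7 (WT), 225 ± 23.0 (CRISPR Control), 225 ± 18.6 (KO 1) and 264 ± 29.2 (KO 2) and passed no test.

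COL26A1 (chr7:101362875-101559024, plus strand), a secreted member known from testis and ovary, was the third of the genes that prompted the choice. COL26A1 held 1124, 1152 and 1226 (WT), 1454, 1588 and 1777 (CRISPR Control), 44.3, 18.0 and 23.0 (KO 1) and 29.0, 17.5 and 36.3 (KO 2). Its KO libraries were all at 44.3 or less and its WT and CRISPR Control libraries all at 1124 or more, which is a description with no test.

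**Figure D4:**
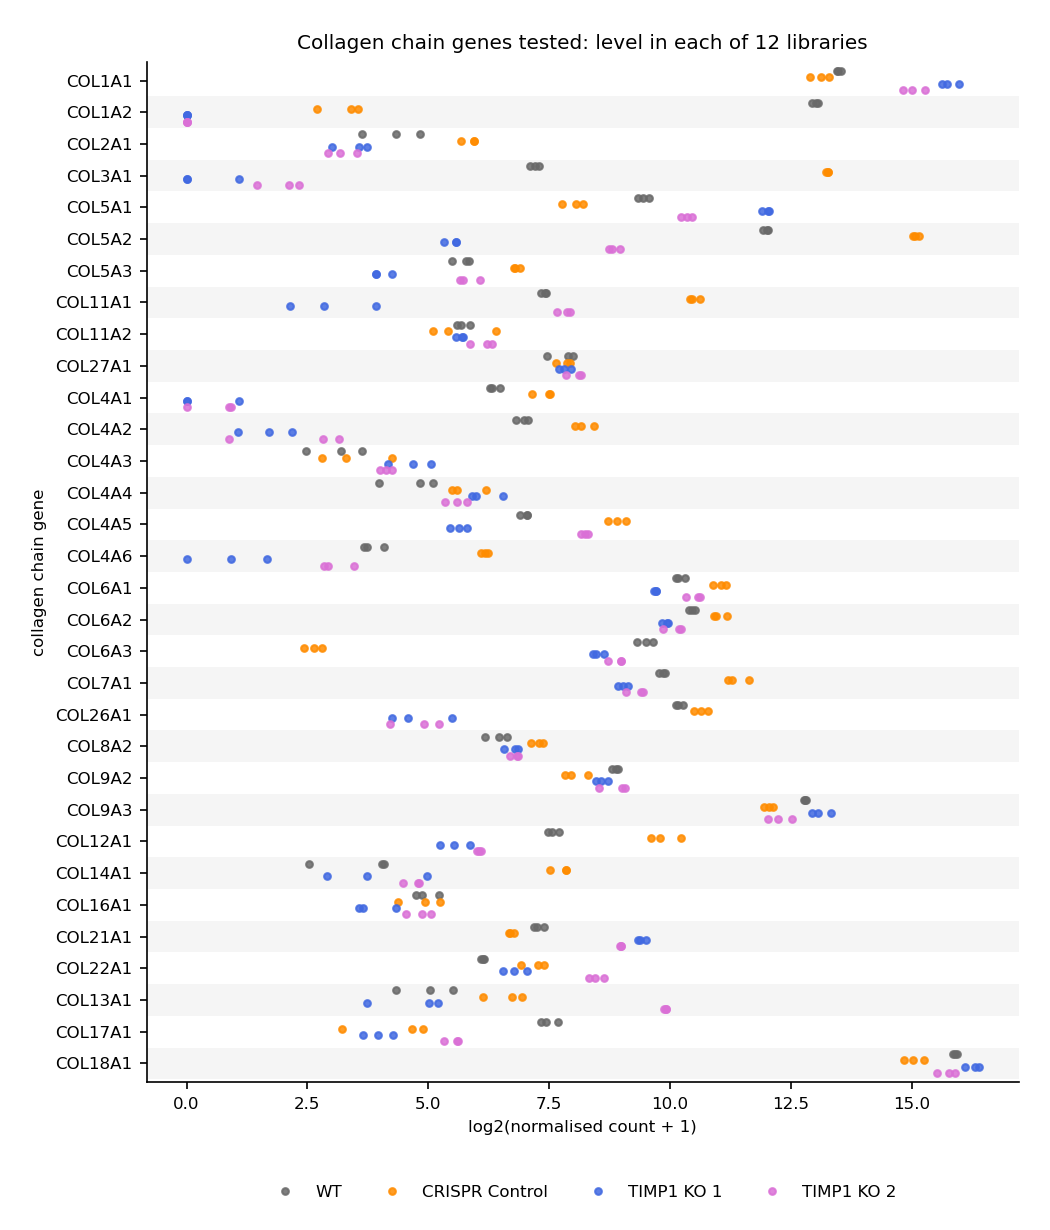
Log2(normalised count + 1) (x axis) of the 32 tested collagen chain genes (y axis) in each of the 12 libraries, 1 point per library, coloured by line. In most genes the 3 libraries of a line lie closer together than the lines do, and CRISPR Control is often the highest or the lowest.

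The 12 genes that were not tested had means under 10 over the 12 libraries. COL10A1, the type X chain of growth plate cartilage, held 34.0, 20.9 and 28.6 (WT), 2.59, 7.12 and 2.20 (CRISPR Control), 0, 0 and 1.77 (KO 1) and 0, 0.877 and 1.01 (KO 2), so WT stood above the other libraries. It falls under the minimum because only WT was above 10. COL24A1 averaged 9.14 ± 3.51 (WT), 10.5 ± 5.16 (CRISPR Control), 2.63 ± 1.31 (KO 1) and 6.99 ± 4.77 (KO 2). COL15A1 averaged 2.45 ± 1.87 (WT), 7.87 ± 3.36 (CRISPR Control), 2.13 ± 2.80 (KO 1) and 3.59 ± 1.47 (KO 2). COL20A1 averaged 4.28 ± 1.32 (WT), 9.33 ± 2.53 (CRISPR Control), 2.88 ± 2.18 (KO 1) and 2.41 ± 1.33 (KO 2). COL6A5, COL6A6, COL8A1, COL9A1, COL19A1, COL23A1, COL25A1 and COL28A1 had line means of 3.25 or less in every line, which lies around the floor.

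The study, using DESeq2, read genes as dependent on TIMP1 where both knockout lines differed from WT and CRISPR Control did not. With a shared direction in the knockout lines added, 1 of the 32 tested collagen genes met that rule upward, COL4A3, where 5.00% of all genes tested did, and 1 downward, where 5.18% did. The downward gene was COL26A1, one of the 3 prompting genes, so nothing is read from it. Of the 29 others, 1 met the rule upward and 0 downward in limma. The same counts came at an unadjusted p under 0.05, for which the share of all genes was not taken. No collagen gene met the rule in either direction in edgeR, where 796 genes of the 15952 tested did upward and 824 downward. COL4A3 was not in the intersection in the fits without WT replicate 1 or 2, KO 1 replicate 3 or any single KO 2 library, with no minimum mean, or in edgeR. The downward count rose to 2 or 3 without any single WT or CRISPR Control library, since COL4A1, or COL4A1 and COL4A2, then lost the CRISPR Control call. Genes with large changes in both knockout lines, such as COL1A1, COL5A2, COL4A1, COL12A1, COL17A1 and COL21A1, were outside the intersection because CRISPR Control differed from WT as well. Among these, COL17A1 was lower than WT in all 3 edited lines. COL5A2, COL4A1, COL4A2, COL12A1, COL7A1 and COL6A2 were higher than WT in CRISPR Control and lower in both knockout lines, and COL1A1, COL5A1 and COL21A1 were the reverse.

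A direct comparison of the knockout clones, which does not use WT, gave 13 of the 32 genes higher in KO 2 and 5 lower, where 18.1% and 20.1% of all genes tested were. Without the 3 prompting genes these counts were 12 and 5 of 29. The median absolute log2 difference was 0.60 for the 32 genes, 0.63 for the 29 and 0.26 for all genes. Higher in KO 2 by the most were COL13A1 (5.25, SE 0.32, limma adjusted p = 3.66e-10), COL11A1 (4.86, SE 0.28, limma adjusted p = 1.03e-10) and COL5A2 (3.34, SE 0.09, limma adjusted p = 4.00e-15). COL5A1 (-1.64, SE 0.10, limma adjusted p = 4.51e-10) was lower in KO 2 by the most, followed by COL9A3 (-0.85, SE 0.11, limma adjusted p = 4.24e-06) and COL1A1 (-0.75, SE 0.11, limma adjusted p = 3.72e-05). Of the calls, 2 small differences lay close to the threshold, COL6A3 (0.38, SE 0.14, limma adjusted p = 0.0408) and COL12A1 (0.51, SE 0.17, limma adjusted p = 0.0246). COL6A3 was no longer called when WT replicate 3, KO 1 replicate 2 or 3, or KO 2 replicate 2 or 3 was left out (limma adjusted p up to 0.142) or with no minimum mean (0.0632). COL12A1 was not called without KO 1 replicate 2 or 3 or KO 2 replicate 1 or 2 (limma adjusted p up to 0.132), nor in edgeR (adjusted p = 0.0825). Not called here were COL4A2, which passed at 1.34 without KO 2 replicate 1 (limma adjusted p = 0.00267), and COL14A1, which passed at 1.37 without KO 1 replicate 2 (0.0143).

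Genes that act on collagen chains were taken from lists of general knowledge written with earlier results of these data known. Of 21 genes for folding and modification of chains in the endoplasmic reticulum, all tested, 4 were higher and 10 lower in CRISPR Control than in WT, 7 higher and 2 lower in KO 1, and 8 higher and 2 lower in KO 2. Of all genes tested, 27.2% were higher and 26.3% lower in CRISPR Control, 18.0% and 17.5% for KO 1, and 27.1% and 27.9% for KO 2. The list's median log2 fold changes were -0.061, 0.13 and 0.10, beside 0.013, 0.0032 and -0.0084 for all genes. COLGALT2, which adds galactose to hydroxylysine, moved most in CRISPR Control, where it had 148, 136 and 157 against 979, 991 and 1034 in WT (log2 fold change -2.76, SE 0.09, limma adjusted p = 8.34e-15). P4HA3, a prolyl 4-hydroxylase subunit, moved most in both KO lines, with 542, 494 and 542 in KO 1 and 874, 922 and 935 in KO 2 against 173, 154 and 140.0 in WT. Its log2 fold changes were 1.76 (SE 0.12, limma adjusted p = 8.63e-10) in KO 1 and 2.55 (SE 0.12, limma adjusted p = 1.90e-12) in KO 2.

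Of 12 tested genes for propeptide cleavage and cross-linking (ADAMTS3 and ADAMTS14 were under the minimum), 3 were higher and 5 lower in CRISPR Control, 3 higher and 3 lower in KO 1, and 5 higher and 2 lower in KO 2, with median log2 fold changes of -0.20, 0.038 and 0.34. The shares of all genes were 27.2% and 26.3%, 18.0% and 17.5%, and 27.1% and 27.9% in the same order, with medians of 0.013, 0.0032 and -0.0084. ADAMTS2, which removes the amino-terminal propeptide of fibrillar chains, moved most in CRISPR Control (log2 fold change 2.93, SE 0.50) and in KO 1. It held 6.79, 10.0 and 4.76 in WT, 88.1, 45.1 and 52.7 in CRISPR Control and 0, 0 and 1.77 in KO 1. ADAMTS2 reached the minimum mean of 10 only through CRISPR Control, so no p is given there. It is 1 of the 3 genes counted as higher in that line, and nothing is read from its place in that count. Its KO 1 value rests on 2 reads, and its means in WT and KO 1 were both under 10 (limma adjusted p = 7.06e-04). TLL1, a protease of the family that cuts the carboxy-terminal propeptide, moved most in KO 2, with 214, 203 and 178 against 31.7, 24.5 and 27.6 in WT (log2 fold change 2.78, SE 0.22, limma adjusted p = 5.27e-09).

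Of 9 tested collagen receptors and uptake genes (LAIR1 and GP6 were under the minimum), 2 were higher and 5 lower in CRISPR Control, 5 higher and 2 lower in KO 1, and 7 higher and 2 lower in KO 2, with median log2 fold changes of -0.21, 0.73 and 0.62. Among all genes, 27.2% and 26.3%, 18.0% and 17.5%, and 27.1% and 27.9% were higher and lower in these comparisons, with medians of 0.013, 0.0032 and -0.0084. ITGA10, the alpha 10 integrin subunit, moved most in CRISPR Control, with 39.7, 10.7 and 15.4 against 315, 335 and 331 in WT (log2 fold change -4.05, SE 0.28, limma adjusted p = 5.78e-10). DDR2, a receptor kinase that binds fibrillar collagens, moved most in KO 1, with 28.1, 34.9 and 26.5 against 141, 167 and 147 in WT (log2 fold change -2.32, SE 0.23, limma adjusted p = 2.81e-07). ITGA11, the alpha 11 subunit, which binds type I collagen, moved most in KO 2, with 81.2, 81.5 and 79.7 against 15.8, 3.64 and 7.62 in WT (log2 fold change 3.22, SE 0.36, limma adjusted p = 4.98e-07). The counts of these lists describe their genes only, and no test of a list as a whole was made.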

How the data were processed

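The data are 12 RNA-seq libraries of MIA PaCa-2 cells, 3 for each of 4 lines, with groups and replicate numbers taken from the sample titles. Per the methods, the authors trimmed reads with Cutadapt, aligned them to GRCh38 with STAR, assigned them to genes with featureCounts and scaled each library by its DESeq2 size factor, with FastQC and MultiQC for quality checks. What they deposited is a signal, normalised counts. The annotation release and the strand setting are not given in the sources used here. A change shared by most genes would be removed by the size factors. Of the table, 4 further columns with means per line were left unused, as was 1 line without a gene name.

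Every library has a smallest step, the worth of 1 read. Dividing by it gave whole reads for 100% of values within 0.01 reads, and these reads gave depths and floors. Floors and counting intervals cover counting error only, since PCR copies of a molecule are counted as reads. Ratios against a line with 1 to 3 reads carry exact 95% intervals.

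The collagen genes and the lists were chosen with earlier results of these data known. Genes shown library by library were the 3 that prompted the choice and the 15 others with the widest range of line means, of those tested with a mean of at least 100 in some line, and their chain partners were named with them. From each list of other genes, the member with the largest called change in each comparison with WT was named. The main test used limma 3.58.1 (R 4.3.3) after adding a pseudocount of 1 to normalised counts and taking log2, with a mean of at least 10, lmFit and contrasts.fit over all 12 libraries, eBayes with a trend, and Benjamini-Hochberg adjustment over all 15987 genes at 0.05, two-sided. Fold changes on this scale understate changes of low genes. Alternatives were pseudocounts of 0.5 and 10, no minimum mean or 50, equal library totals, a replicate block, leaving out each library, and edgeR 4.0.16 (quasi-likelihood) on recovered reads. The last was limited, after seeing the data, to 11 libraries. A check of units did not accept KO 2 replicate 3 as recovered reads because its step, 1.009, lay close to 1, although its values also came out whole. The limma and edgeR fits were tested on simulated data. Gene spans come from GENCODE release 44 and transcript lengths are those of the MANE Select transcript. Of the 44 identifiers, 40 carry the version of that release.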

Additional observations from a re-analysis of the deposited data

Results flagged for a closer look

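For 12 of the 15 collagen genes shown library by library beside the 3 prompting ones, the difference from WT was not the same in the knockout clones: KO 2 and KO 1 differed in the limma test of the difference itself. Among all genes tested, 18.1% were higher and 20.1% lower in KO 2 than in KO 1. The 15 were picked for a wide range of line means, which favours such a difference, so nothing is read from their number. Given as KO 2 minus KO 1 on the log2 scale, COL13A1 stood at 5.25, COL11A1 at 4.86, COL5A2 at 3.34, COL4A5 at 2.60, COL5A3 at 1.79, COL22A1 at 1.68 and COL17A1 at 1.55. The differences of COL12A1 (0.51) and COL6A3 (0.38) were smaller, and those of COL21A1 (-0.42), COL1A1 (-0.75) and COL5A1 (-1.64) were negative. COL4A5 was the one of these genes called in opposite directions against WT, at -1.36 in KO 1 and 1.25 in KO 2. COL13A1 was called in KO 2 and not in KO 1, and COL11A1 and COL5A3 were called in KO 1 and not in KO 2. The others moved the same way in both clones by different amounts. No group had more than 3 libraries, so no library was examined for standing apart from its group.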

How the results depend on the processing

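Counts of collagen genes that passed kept within 1.5 times their value under every alternative run, apart from both intersection counts. The upward count was 1, 0 with no minimum mean, 0 at a minimum of 50 and 0 in edgeR, and ran from 0 to 2 with single libraries left out. The downward count was 1, 2 at a pseudocount of 0.5, 3 with no minimum mean and 0 in edgeR, and ran from 1 to 3 with single libraries left out. Directions turned in 5 cases, none of them called: COL13A1 in KO 1 against WT (-0.31; -0.62 to 0.15 with single libraries left out, positive without KO 1 replicate 3), COL14A1 in KO 1 (0.32; -0.23 to 0.81, negative without KO 1 replicate 2 or, at -0.19, WT replicate 3), and COL5A3 in KO 2 (0.11; -0.020 in edgeR, and -0.0169 to 0.19 with single libraries left out, negative without KO 2 replicate 3). The cause was not tested. Equal library totals moved the median gene by 0.103 between KO 2 and KO 1, and no collagen call was lost or turned under them. They added 3 calls there (COL9A2, COL7A1 and COL6A2) and COL8A2 in KO 2 against WT. Libraries that share a number did not deviate together (r from -0.13 to 0.16 over 18 pairs), so the numbers do not pair them. A replicate block left 17 of 18 calls between the knockout lines, COL6A3 missing the threshold (limma adjusted p = 0.0544), and the same numbers of calls against WT (27, 25 and 23). Genes at or near 0 in a line, such as COL1A2, have fitted fold changes that follow the pseudocount. Depth limits folds that rest on few reads: COL4A1 in both KO lines and COL3A1 and COL4A6 in KO 1 had 1 to 3 reads and wide counting intervals, and that of COL1A2 in the KO lines is a lower bound.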
